A study of Mus musculus with 9 samples.

Results

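The Ube2 genes encode most ubiquitin E2 conjugating enzymes of the mouse. Members were taken by name, as every row of the deposited expression table whose gene name starts with Ube2 and a further letter. Ube2c and pseudogene names with -ps were left out, while pseudogenes under other names stayed in. The rule found 39 genes of the 46517 listed, and 32 of them passed the filter on low values, at least 5 reads in 1 or more libraries. Neutrophils were compared between the bone marrow, blood and pancreatic tumor of the same kind of host, C57BL/6 mice carrying an orthotopic tumor (OT) grown from a cell line derived from KPC mice, on day 27 after injection into the pancreas. The groups were OT_BM (bone marrow, labelled Ly6G.hi), OT_BD (blood, Ly6G+) and OT_TR (tumor, Ly6G+), with 3 libraries each. Cells were sorted as Dapi-CD45+Lin-Ly6G+Ly6C+, where Lin covers CD3, B220 and NK1.1. Each library pools several mice of 1 experiment, and each compartment was sampled in 3 separate experiments, so the p-values below measure the spread between such pools. All mice carried a tumor, and healthy mice were not analysed here.

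Ubiquitin is attached to proteins by a relay of enzymes. An E1 activates ubiquitin and passes it to the cysteine of an E2, and an E3 ligase brings the loaded E2 to the substrate. The E2 has a large part in deciding which kind of chain is built, and so whether the substrate goes to the proteasome, takes part in a signal or is modified for DNA repair. Some members of the family carry ubiquitin-like proteins in place of ubiquitin, such as SUMO, NEDD8 or ISG15. In neutrophils, ubiquitin chains act in the signalling of NF-kB and of interferon, among other paths.

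The 9 libraries held between 4580807 and 7949367 reads assigned to genes. Log2 FPKM values correlated at r of 0.94 to 0.969 within a compartment and 0.645 to 0.886 between compartments, across genes within pairs of libraries. Markers of mature neutrophils were read in every compartment, none of the 10 being at 0, with sums between 59763 and 65480 RPM (reads scaled to a common library size) in bone marrow, between 41788 and 44130 in blood, and between 9905 and 12530 in tumor. The order of these sums does not hold for each marker. Csf3r had 52750, 72754 and 55403 reads in blood against 18048, 16048 and 13802 in bone marrow, and Cxcr2 was also highest in blood. Markers of immature neutrophils, 10 in number, were highest in bone marrow, with sums of 87724 to 100603 RPM against 2185 to 3512 in blood and 6216 to 9233 in tumor. Markers of other cells moved with the compartments too. In blood, the 10 macrophage and monocyte markers summed to 1559 to 1745 RPM and the 11 lymphocyte markers to 103 to 181, against at most 599 and 75.8 elsewhere. The macrophage and monocyte markers did not move together, and most of their blood reads were of Csf1r (4796, 6885 and 5114). Ms4a7 had no reads in blood, and Ccr2 had 393, 229 and 307 there against 952, 546 and 939 in bone marrow. The 8 platelet markers summed to 1084 to 1460 RPM in blood against at most 141 in bone marrow and 54.2 in tumor, and the red cell markers listed, 10 of 12, to 338 to 700 in blood against at most 99.3 and 196. In tumor, the 10 epithelial markers summed to 2313 to 4376 RPM, the 7 fibroblast markers to 970 to 1114 and the 8 pancreatic acinar markers to 656 to 2521. The highest sums outside the tumor were 237, 12.5 and 10.4 for these lists. In bulk samples of this kind, fewer cells of a type and less RNA per cell cannot be told apart.

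As a share of all reads, the family lay between 0.208% and 0.218% of the reads in bone marrow, 0.214% and 0.252% in blood, and 0.21% and 0.229% in tumor. At the scaled library sizes that the tests use, its genes summed to between 1840 and 2019 RPM in tumor, where every library lay below the rest, against 2478 to 2618 (bone marrow) and 2614 to 2986 (blood). Of 129111 reads in all, 65.6% belonged to 5 genes. Ube2d3 alone had 31.2%, and among the others Ube2b had 13.5%, Ube2h 11% and Ube2j1 4.78%.

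Changes below are log2 fold changes of the deposited values from a limma fit across all genes tested, given with their sign, so that a minus stands for the lower level, and a gene passed at an adjusted p under 0.05. Between tumor and blood, 11 of the 32 genes tested were higher in tumor and 8 lower. Together these are 59.4% of the members tested, near the 54.8% of all 17714 genes tested that passed in either direction (33.7% higher and 21.1% lower). Between tumor and bone marrow, 4 members were higher and 11 lower, or 46.9%, against 46.3% of all genes (26.8% higher and 19.5% lower). Between blood and bone marrow, 3 were higher and 8 lower, or 34.4%, against 31.8% of all genes (13.7% higher and 18.1% lower). Pooled over both directions, the shares of members that passed were near those of all genes. By direction, tumor against bone marrow stood apart at the scaling of the deposited values, with 12.5% of the members higher and 34.4% lower. At that scaling the split was turned round from that of all genes. The libraries of both compartments did not overlap for 20, 17 and 14 members in these contrasts, against 59.4%, 55.7% and 45.2% of all genes. The median log2 fold change of the members tested was 0.27 for tumor against blood, -0.15 for tumor against bone marrow and -0.25 for blood against bone marrow. Over all genes tested the medians were 0.50, 0.29 and 0. Many of those genes had few reads, and among genes with a mean of at least 10 reads the medians were 0.30, 0.07 and -0.13. For the 30 members past that filter they were 0.17, -0.15 and -0.21. These splits depend on how the libraries are scaled. With plain library totals, 16 members were higher and 3 lower in tumor than in blood, with median centring 5 and 16, and with quantile normalization 4 and 9. Against bone marrow the tumor counts were 10 and 1, 2 and 16, and 2 and 13 under the same scalings. For blood against bone marrow they were 3 and 7, 3 and 4, and 3 and 7. Of all genes tested, tumor against bone marrow had 36.2% higher and 12.7% lower with plain totals. The shares were 20.2% and 28.8% with median centring, and 20.1% and 27.9% with quantile normalization. Members and all genes thus leaned the same way in that contrast under each of these other scalings. The median of all genes tested for tumor against blood moved from 0.50 to 0.89 with plain totals, to -0.25 with centring and to -0.23 with quantile normalization. Altogether 25 members changed in at least 1 contrast, and 7 in none, among them Ube2a, Ube2g1, Ube2k, Ube2q1, Ube2q2 and Ube2v1.

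**Figure D1:**
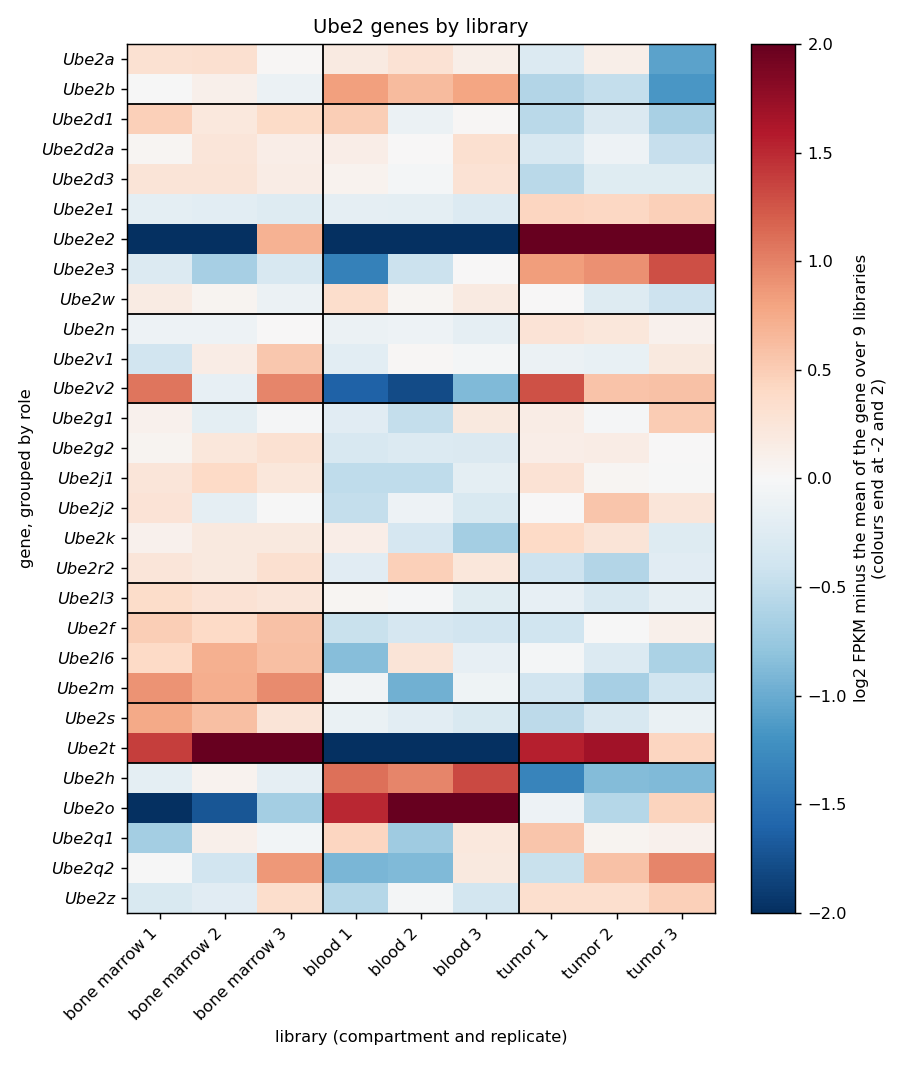
Log2 FPKM of 29 Ube2 genes with a mean of at least 10 reads, by library (columns, 3 for each compartment), as the difference from the mean of the gene over the 9 libraries, with colours ending at -2 and 2. Rows are grouped by role, and the blood columns of Ube2b, Ube2h and Ube2o are high while the tumor columns of Ube2e1, Ube2e2 and Ube2e3 are high.

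The UBE2D enzymes work with a very wide range of E3 ligases, and Ube2d3 was the most abundant E2 transcript by reads. Its log2 FPKM was 4.87, 4.86 and 4.76 in bone marrow, 4.68, 4.57 and 4.90 in blood and 4.08, 4.37 and 4.37 in tumor. Every tumor library lay below every library of the other compartments, while blood and bone marrow overlapped. The change in tumor was -0.45 against blood (SE 0.12, adjusted p = 0.0106) and -0.56 against bone marrow (SE 0.12, adjusted p = 0.00377). Ube2d1 was lower in tumor by -0.62 against blood (SE 0.23, adjusted p = 0.0389) and by -0.85 against bone marrow (SE 0.23, adjusted p = 0.0105). Ube2d2a was lower by -0.44 (SE 0.14, adjusted p = 0.0225) and -0.43 (SE 0.14, adjusted p = 0.0295). All 3 genes were thus lower in tumor. All 6 calls were lost with plain library totals, under which the tumor values were within 0.27 of both other compartments on the log2 scale. Ube2d1 against blood was lost in 12 of 22 alternatives, among them without blood replicate 1 and without blood replicate 3. Without blood replicate 3 the falls of Ube2d2a and Ube2d3 against blood also missed the threshold.

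Ube2d2b, a further UBE2D gene, had 1, 4 and 9 reads in bone marrow, 0 in every blood library and 1, 0 and 2 in tumor. Bone marrow was at least 3.50-fold higher than blood, set against a floor of 3 reads over the blood group (adjusted p = 0.0149). This call was lost without bone marrow replicate 3, which had the most reads. The coding sequence of Ube2d2b is 92.6% identical to that of Ube2d2a, with shared runs of up to 32 bases, so the assignment of these few reads is uncertain. Its X-linked relatives Ube2dnl1 and Ube2dnl2 had no reads, nor did Ube2d4, which is annotated as a processed pseudogene.

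The UBE2E enzymes share the conjugating core of the UBE2D group but carry an N-terminal extension, and they moved the other way. Ube2e3 had a log2 FPKM of -1.77, -2.16 and -1.82 in bone marrow, -2.85, -1.92 and -1.48 in blood and -0.66, -0.57 and -0.20 in tumor. The tumor libraries were all above the rest, and blood replicate 1 was the lowest. Ube2e3 rose by 1.61 against blood (SE 0.32, adjusted p = 0.00152) and by 1.44 against bone marrow (SE 0.32, adjusted p = 0.00365). Both calls held in all 22 alternatives. Ube2e1 stood at -1.85, -1.87 and -1.92 in bone marrow, -1.84, -1.85 and -1.94 in blood and -1.23, -1.25 and -1.19 in tumor. The spread within each compartment was thus far below the step to the tumor. The rise was 0.65 against blood (SE 0.18, adjusted p = 0.00966) and 0.66 against bone marrow (SE 0.18, adjusted p = 0.0113), and both calls were lost with median centring and quantile normalization. Of the exons of Ube2e1, 16.1% by length overlap Nkiras1 on the opposite strand, and the library kit does not mark strand. Ube2e2 had 0, 0 and 2 reads in bone marrow, 0 in each blood library and 12, 16 and 68 in tumor. It was at least 21-fold higher in tumor than in blood, against a floor of 3 reads over the blood group (adjusted p = 0.00042), and 42-fold higher than in bone marrow (exact 95% interval for counting error 11.3 to 352, adjusted p = 0.00165). These calls were lost with a pseudocount of 1 or 0.1 on the FPKM scale, which damps genes as low as this one. Tumor replicate 3, with the most Ube2e2 reads, also had the highest sums of the acinar (2521 RPM against 964 and 656) and epithelial (4376 against 2947 and 2313) markers. The part of such cells in the rise of the UBE2E genes was not tested.

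Within a library, a ratio of 2 genes is free of any scaling. Such ratios of 4 genes to Ube2d3 were chosen after the values were seen and are given without a test. The log2 ratio of Ube2e3 to Ube2d3 lay between -4.94 and -4.57 in tumor, against -7.53 to -6.39 in blood and -7.03 to -6.58 in bone marrow. That of Ube2e1 to Ube2d3 lay between -5.62 and -5.30, against -6.84 to -6.42 and -6.73 to -6.68. Both tumor ranges were clear of the others, by mean differences of 2.06 and 2.00 for Ube2e3 and 1.10 and 1.22 for Ube2e1, against blood and bone marrow. Among the pairs of related genes that were tested, Ube2e1 to Ube2e3 fell by 0.95 against blood and by 0.78 against bone marrow, without overlap of the libraries. With 3 libraries against 3, the exact two-sided permutation test cannot give less than 0.1 (adjusted p = 0.375 over 30 comparisons), so none of these could pass. In 8 of the 30 comparisons the libraries did not overlap. Ube2d2a to Ube2d3 differed by 0.01 between tumor and blood (exact permutation p = 1) and by 0.13 between tumor and bone marrow (exact permutation p = 0.4). Between blood and bone marrow it differed by 0.12 without overlap, at the smallest p of 0.1 that the exact permutation test allows. Ube2d1 to Ube2d3 differed by -0.17 between tumor and blood (exact permutation p = 0.6) and by -0.29 between tumor and bone marrow (exact permutation p = 0.2).

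**Figure D2:**
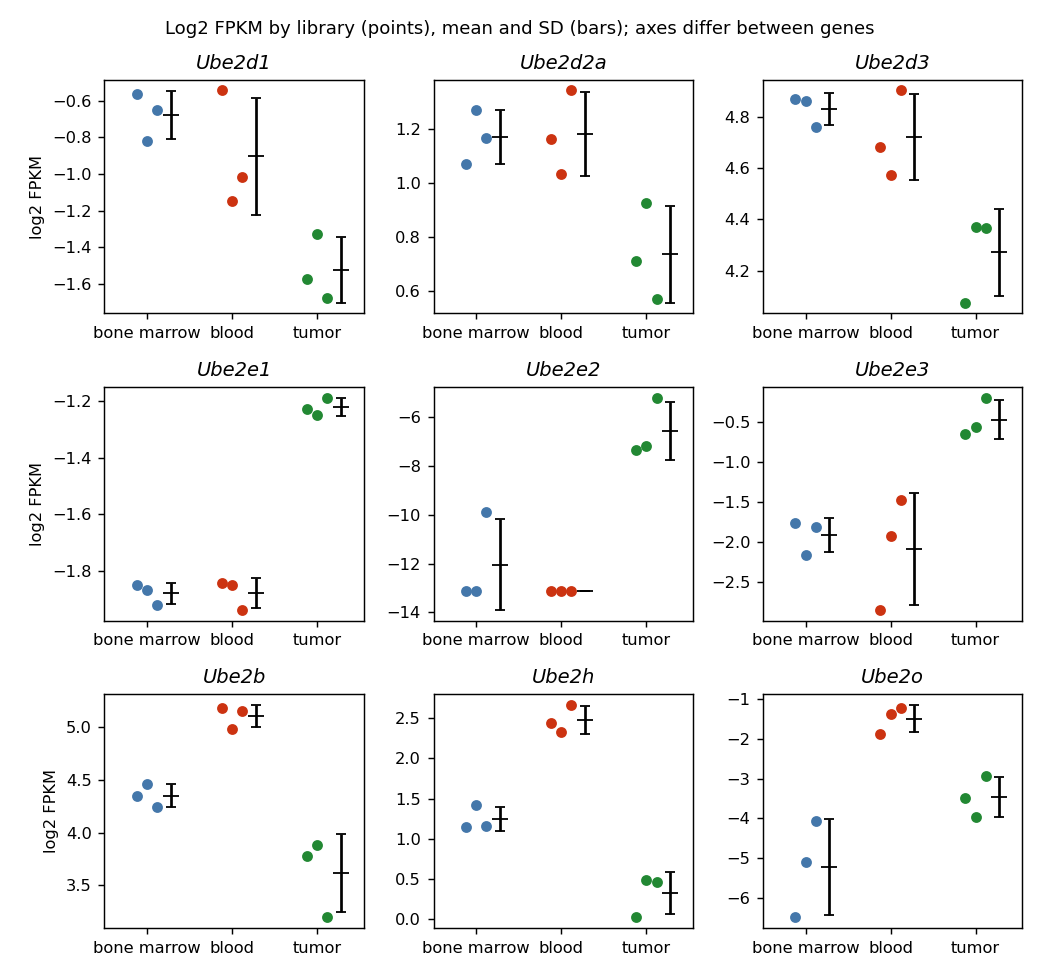
Log2 FPKM of 9 Ube2 genes in each library of bone marrow, blood and tumor (points), with the mean and SD of the 3 libraries beside them. The UBE2D genes are lowest in tumor, the UBE2E genes highest in tumor, and Ube2b, Ube2h and Ube2o highest in blood, with axes that differ between genes.

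The members that passed as higher in blood than in bone marrow were 3, Ube2b, Ube2h and Ube2o, and each was also higher in blood than in tumor. Ube2b and Ube2a are the mouse forms of yeast RAD6, which ubiquitinates histone H2B and PCNA and serves the N-degron pathway. Ube2h works with the CTLH E3 complex, and Ube2o is a large enzyme that acts as E2 and E3 at once. Ube2h and Ube2o are known for a part in the remodelling of proteins in maturing red cells. The promoters of Ube2b and Ube2h are shown because these genes shared a pattern and, alone among the 30 members found in the promoter table, an 8-base palindrome, the cyclic AMP response element TGACGTCA. Sequences are from RefSeq (GRCm38.p6), 250 bases before to 50 after the more upstream annotated start of each gene, with the element in capitals.
Ube2b, chr11:52000737-52001036, minus strand: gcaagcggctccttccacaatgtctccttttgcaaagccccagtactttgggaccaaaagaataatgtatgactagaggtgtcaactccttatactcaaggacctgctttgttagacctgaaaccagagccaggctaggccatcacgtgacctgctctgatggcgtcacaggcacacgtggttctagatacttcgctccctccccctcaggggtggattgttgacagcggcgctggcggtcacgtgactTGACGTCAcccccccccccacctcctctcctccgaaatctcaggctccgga
Ube2h, chr6:30304490-30304789, minus strand: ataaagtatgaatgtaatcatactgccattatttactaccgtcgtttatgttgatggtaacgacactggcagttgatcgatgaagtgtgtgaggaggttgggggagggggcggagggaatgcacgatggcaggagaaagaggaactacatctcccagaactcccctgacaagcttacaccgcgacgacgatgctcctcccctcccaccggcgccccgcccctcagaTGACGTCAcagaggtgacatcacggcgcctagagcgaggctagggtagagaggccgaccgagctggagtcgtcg
The palindrome starts 1 base before the start of Ube2b and 24 before that of Ube2h. It was found in 1.79% of all 32851 promoters of this length, on both strands, and its shorter core TGACGT, which overlaps it, in 7.51% of all and in promoters of 4 members, Ube2b, Ube2h, Ube2j1 and Ube2s. A match of letters is a description only, and the motif was picked from a short list with the values known.

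Ube2h (chr6:30211289-30304539) had a log2 FPKM of 1.15, 1.42 and 1.16 in bone marrow, 2.44, 2.33 and 2.67 in blood and 0.02, 0.48 and 0.47 in tumor. The 3 compartments did not overlap, with blood highest and tumor lowest. It was higher in blood than in bone marrow by 1.24 (SE 0.15, adjusted p = 0.000174). Tumor was lower by -2.16 against blood (SE 0.15, adjusted p = 1.72e-06) and by -0.92 against bone marrow (SE 0.15, adjusted p = 0.000641). All 3 calls held in each of the 23 alternatives. Ube2b (chr11:51985497-52000762) followed the same order, at 4.35, 4.46 and 4.24 in bone marrow, 5.18, 4.98 and 5.15 in blood and 3.78, 3.88 and 3.20 in tumor. Tumor replicate 3 was the lowest, and again no compartments overlapped. Blood exceeded bone marrow by 0.76 (SE 0.17, adjusted p = 0.00592), and tumor was lower by -1.49 (SE 0.17, adjusted p = 3.61e-05) and -0.73 (SE 0.17, adjusted p = 0.00457). The fall against blood held in all 23 alternatives, while that against bone marrow was lost with plain library totals (-0.28). Its paralog Ube2a did not pass in any contrast, with log2 fold changes of -0.61 (adjusted p = 0.0662), -0.63 (adjusted p = 0.0672) and -0.02. The log2 ratio of Ube2a to Ube2b was lower in blood than in bone marrow by -0.78 and higher in tumor than in blood by 0.88, without overlap of the libraries.

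Ube2o (chr11:116537740-116581447) had few reads, with 3, 7 and 17 in bone marrow, 47, 95 and 88 in blood and 24, 21 and 45 in tumor. On the log2 FPKM scale this was -6.49, -5.10 and -4.07, then -1.87, -1.36 and -1.22, then -3.48, -3.96 and -2.94. Blood was clear of both, and bone marrow varied most. The rise from bone marrow to blood was 3.74 (SE 0.59, adjusted p = 0.000722) and held in all 22 alternatives. Tumor was lower than blood by -1.98 (SE 0.59, adjusted p = 0.0148), a call lost without tumor replicate 1 or 2, and higher than bone marrow by 1.76 (SE 0.59, adjusted p = 0.0301), a call lost in 12 of 22 alternatives. Red cell and platelet markers were higher in blood too, as given above. Among the blood libraries, replicate 1 had the lowest red cell sum (338 RPM, against 700 and 557) and the lowest Ube2o, but not the lowest Ube2h or Ube2b. The part of these cells in the blood values was not tested. To Ube2d3 in the same library, Ube2h stood between -2.25 and -2.24 in blood, against -3.72 to -3.44 in bone marrow and -4.05 to -3.89 in tumor. Ube2b stood between 0.25 and 0.50 in blood, against -0.52 to -0.40 and -1.17 to -0.30. The blood step was thus present without scaling for both, while the tumor and bone marrow ranges of Ube2b overlapped.

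**Figure D3:**
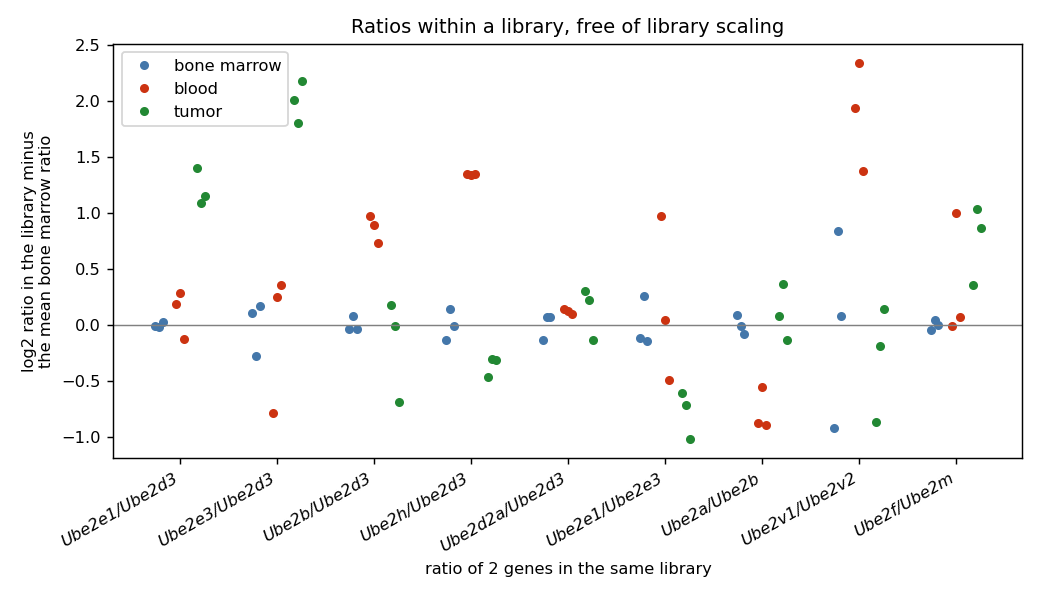
Log2 ratio of 2 Ube2 genes in the same library, minus the mean ratio in bone marrow, with 1 point per library and 3 libraries per compartment. Ube2e1 and Ube2e3 against Ube2d3 are high in tumor (by 1.22 and 2.00 on average), and Ube2b and Ube2h against Ube2d3 are high in blood (by 0.87 and 1.35).

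Ube2n builds chains linked through lysine 63 of ubiquitin, for which it needs Ube2v1 or Ube2v2, E2-like partners without the active cysteine. Ube2n was slightly higher in tumor than in blood, by 0.32 (SE 0.11, adjusted p = 0.0331), a call lost in 7 of 23 alternatives, among them the removal of any one blood library, quantile normalization and median centring, which turned it to -0.43. Ube2v2 had 45, 16 and 42 reads in bone marrow, 4, 5 and 8 in blood and 48, 36 and 38 in tumor. In log2 FPKM it was at -2.63, -3.87 and -2.72, then -5.32, -5.49 and -4.59, then -2.43, -3.12 and -3.12. Every blood library was below all others. The difference was 2.24 for tumor against blood (SE 0.50, adjusted p = 0.00306), lost with quantile normalization, and -2.06 for blood against bone marrow (SE 0.50, adjusted p = 0.00932). Ube2v1 was read at 6 to 17 reads per library and passed in no contrast, with adjusted p of 0.862 to 0.947. Of its exon length, 61.5% is shared with a read-through gene on the same strand, Gm20431, which was listed with no reads, and how reads in the shared exons were counted is not given in the sources used here. The log2 ratio of Ube2v1 to Ube2v2 was higher in blood by 1.89 against bone marrow and lower in tumor than in blood by -2.19, without overlap. Ube2nl, also annotated as a processed pseudogene, had at most 4 reads in a library and was not tested.

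The next group serves degradation at the endoplasmic reticulum (ER) and builds chains through lysine 48, the proteasome signal. Ube2j1 and Ube2j2 sit in the ER membrane, and Ube2g2 works with ER ligases such as Hrd1. Ube2j1 had a log2 FPKM of 2.60, 2.77 and 2.60 in bone marrow, 1.86, 1.86 and 2.17 in blood and 2.65, 2.41 and 2.36 in tumor. Blood was lowest in each library, and tumor and bone marrow overlapped. Blood differed from bone marrow by -0.69 (SE 0.14, adjusted p = 0.00303) and tumor from blood by 0.51 (SE 0.14, adjusted p = 0.00875). Ube2g2 went the same way, by -0.49 (SE 0.12, adjusted p = 0.0109) and 0.38 (SE 0.12, adjusted p = 0.0218). Ube2j2 was higher in tumor than in blood by 0.56 (adjusted p = 0.0374), a call lost in 12 of 23 alternatives. The tumor rises of all 3 were lost with median centring, which turned their direction, and those of Ube2g2 and Ube2j2 also with quantile normalization. The lower blood levels of Ube2g2 and Ube2j1 were lost with median centring. Ube2r2, a relative of Cdc34 that extends chains on cullin ligases, was lower in tumor than in either other compartment, by -0.56 for blood (adjusted p = 0.0232) and -0.66 for bone marrow (adjusted p = 0.0124), both lost with plain totals and without tumor replicate 2. Ube2g1 and Ube2k passed in no contrast, with log2 fold changes between -0.45 and 0.43.

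Of the E2 enzymes of ubiquitin-like proteins, 3 were highest in bone marrow. Ube2m and Ube2f both carry NEDD8, which switches on the cullin ligases. Ube2m had 40, 30 and 41 reads in bone marrow, 12, 9 and 14 in blood and 15, 15 and 19 in tumor, or a log2 FPKM of 0.93, 0.76 and 0.98, then -0.04, -0.94 and -0.06, then -0.36, -0.64 and -0.38. Bone marrow was clear of both. The differences were -1.23 for blood (SE 0.42, adjusted p = 0.0468) and -1.35 for tumor (SE 0.42, adjusted p = 0.0227), and both were lost with plain totals and without bone marrow replicate 1 or 3. Ube2f was lower by -0.88 in blood (SE 0.15, adjusted p = 0.00144), which held in all 23 alternatives, and by -0.60 in tumor (SE 0.15, adjusted p = 0.00867), which was lost with plain totals (-0.15). Ube2l6 carries ISG15, an interferon-induced modifier. It was lower than in bone marrow by -0.82 in blood (SE 0.26, adjusted p = 0.0341) and by -0.88 in tumor (SE 0.26, adjusted p = 0.0174), the first lost in 15 of 23 alternatives and the second in 7, plain totals among them. Other interferon-induced genes did not follow it, since 15 of the 18 genes of that list were higher in blood than in bone marrow and 1 was lower. Of all genes, 13.7% were higher and 18.1% lower in that contrast. Isg15 itself exceeded its bone marrow level in tumor by 2.25 (SE 0.37, adjusted p = 0.000594).

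Ube2t and Ube2s belong to dividing cells. Ube2t monoubiquitinates FANCD2 in the Fanconi anemia path of DNA repair, and Ube2s lengthens chains for the anaphase-promoting complex. The promoter of Ube2t (RefSeq, GRCm38.p6, as above) is shown because it holds the CCAAT box, common in genes of the cell cycle, 3 times, in capitals.
Ube2t, chr1:134962315-134962614, plus strand: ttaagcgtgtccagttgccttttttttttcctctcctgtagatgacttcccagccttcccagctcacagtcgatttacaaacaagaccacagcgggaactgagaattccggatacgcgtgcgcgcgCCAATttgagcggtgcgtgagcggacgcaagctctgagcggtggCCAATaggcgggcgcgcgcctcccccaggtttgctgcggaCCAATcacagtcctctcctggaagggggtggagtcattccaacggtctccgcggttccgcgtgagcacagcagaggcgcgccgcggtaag
The boxes start 124, 80 and 40 bases before the start of Ube2t. CCAAT on either strand is common, in 37.4% of all promoters and in 22% of the 41 promoters of members. Having 3 is not particular to Ube2t, since a promoter of Ube2f also held 3, at 176, 125 and 62 bases before its start. Ube2t had 23, 37 and 67 reads in bone marrow, 0, 1 and 1 in blood and 24, 32 and 14 in tumor, or a log2 FPKM of -1.74, -0.82 and -0.20, then -8.33, -5.75 and -5.54, then -1.57, -1.44 and -2.69. Blood was near 0 throughout. Bone marrow was 47.6-fold higher than blood (exact 95% interval for counting error 12.9 to 397, adjusted p = 0.000529) and tumor 22.9-fold higher (6.12 to 193, adjusted p = 0.000843). Tumor and bone marrow overlapped and their difference of -0.98 did not pass (adjusted p = 0.36). The 15 cell cycle genes of a list that holds Ube2c moved with it, with 15 lower in blood than in bone marrow and 13 higher in tumor than in blood, at sums of 1194 to 1439, 86.3 to 116 and 519 to 721 RPM. The immature neutrophil markers given above were also lowest in blood, and the epithelial markers were highest in tumor. The part of immature neutrophils or of epithelial cells in the values of Ube2t was not tested. Ube2s was lower in tumor than in bone marrow by -0.87 (SE 0.30, adjusted p = 0.0379), a call lost in 5 of 23 alternatives, among them plain totals, without bone marrow replicate 1 or 2 and without tumor replicate 1. It did not pass for tumor against blood (-0.11, adjusted p = 0.772) or for blood against bone marrow (-0.75, adjusted p = 0.0863). Between tumor and blood, Ube2s thus did not move with the cell cycle list. Its exons overlap Rpl28 on the opposite strand for 3.56% of their length.

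Of the remaining members, Ube2l3, which serves HECT and RBR ligases such as the linear chain complex, was lower in tumor than in bone marrow by -0.52 (SE 0.14, adjusted p = 0.0105), lost with plain totals (-0.06). Its exons overlap Ydjc on the opposite strand for 28.6% of their length. Ube2z, which accepts ubiquitin from Uba6, was higher in tumor than in blood by 0.71 (SE 0.22, adjusted p = 0.0189), lost without blood replicate 1 or 3 or tumor replicate 3, with quantile normalization and with median centring, which turned it to -0.045. Ube2w, which modifies the N-terminus of proteins, was lower by -0.41 (SE 0.16, adjusted p = 0.0486), lost in 14 of 22 alternatives, among them plain totals, which turned it to 0.037. Ube2q1 and Ube2q2 passed in no contrast. Ube2cbp matched the rule by name but encodes a protein that binds UBE2C and acts as an E3. It had 4, 2 and 3 reads in bone marrow, 0, 2 and 0 in blood and 5, 7 and 14 in tumor, 8.52-fold higher in tumor than in blood (exact 95% interval for counting error 2.13 to 74, adjusted p = 0.00858), lost with a pseudocount of 1 or 0.1 and with quantile normalization. Ube2u and Ube2ql1 had no reads, and neither did Ube2uos, an antisense RNA and no E2.

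Levels can be compared between genes only per length, here as reads per kilobase of the longest coding transcript at a common library size (RPKM). In bone marrow Ube2d3 came first at 223 ± 9.3 (SD, n = 3), then Ube2b at 174 ± 13. In blood Ube2b came first at 294 ± 21 (SD, n = 3), then Ube2d3 at 208 ± 25. In tumor both were lower, Ube2d3 at 152 ± 17 and Ube2b at 107 ± 25 (SD, n = 3). At these lengths the order of this pair thus turned in blood, by more than both SDs together. The SDs do not cover the choice of length. By reads, Ube2d3 exceeded Ube2b in every blood library (3052, 3993 and 4215 against 2188, 2695 and 2546). Ube2h came next in blood at 112 ± 14 (SD, n = 3) but 47.6 ± 5.2 in bone marrow, below Ube2l6 at 62.9 ± 6.8, and 25.3 ± 4.3 in tumor. There Ube2g2 at 37.8 ± 2 and Ube2l6 at 34.6 ± 7.1 (SD, n = 3) were neighbours that did not differ beyond their spread. Ube2e3 went from 6.29 ± 0.9 and 5.97 ± 2.6 to 17.1 ± 3 in tumor, past Ube2d1, which went from 13.3 ± 1.2 and 11.5 ± 2.7 to 7.37 ± 0.94 (SD, n = 3).

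**Figure D4:**
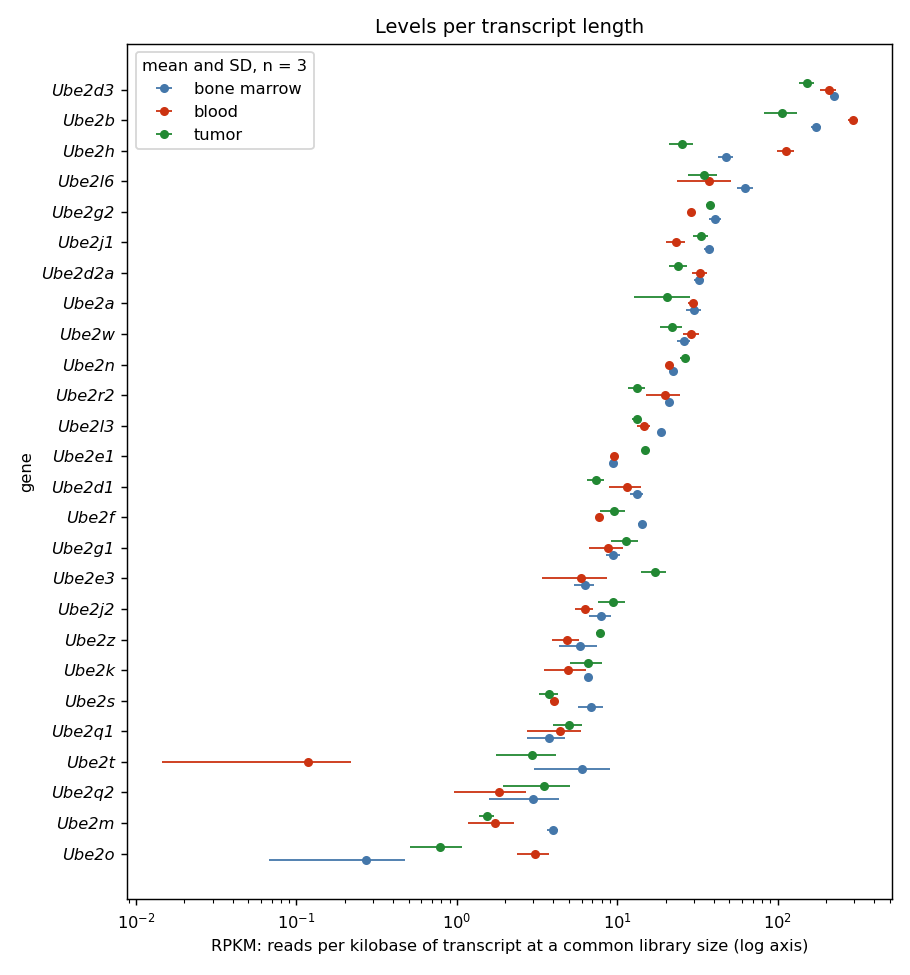
Mean and SD over 3 libraries of the level per transcript length, in RPKM on a log axis, for Ube2 genes with a mean of at least 1 over the compartments. Ube2b exceeds Ube2d3 only in blood (294 against 208), and Ube2e3 lies to the right in tumor (17.1 against 5.97 in blood).

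The enzymes before and after the E2 step changed in both directions. Of the 9 E1 genes, 3 were higher and 3 lower in tumor than in blood, and 2 and 4 against bone marrow. Of all genes, 33.7% were higher and 21.1% lower in tumor than in blood, and 26.8% and 19.5% against bone marrow. Uba3, the catalytic subunit of the NEDD8 E1, rose by 1.46 (adjusted p = 2.2e-05) and Sae1, of the SUMO E1, by 1.47 (adjusted p = 0.000298) against blood, while Atg7, the E1 of autophagy, was lower than in bone marrow by -1.65 (adjusted p = 3.19e-06). Of the 12 genes for ubiquitin and its relatives, 3 were higher and 4 lower in tumor than in blood. Among 7 E2 enzymes with other names, 2 were higher and 2 lower in tumor than in blood. Cdc34 was lower by -0.78 (adjusted p = 0.00207) and Atg3 by -1.76 (adjusted p = 0.0026). Atg10 was higher by 2.26 (SE 0.47, adjusted p = 0.00194), set against only 3, 9 and 9 reads in the blood libraries.

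Among the E3 partners, the ER ligases and their helpers fell in tumor, where 7 of 10 were lower than in blood and none higher, and 6 lower than in bone marrow, with medians of -0.66 and -0.38. Under plain library totals 2 were lower in each contrast and 1 was higher against blood. Os9, a lectin of this machinery, was lower than in blood by -0.83 (adjusted p = 0.000119) and Sel1l, the adaptor of Hrd1, by -0.76 (adjusted p = 0.00518), while Rnf5, a further ER ligase, was lower than in bone marrow by -1.35 (adjusted p = 0.000336). The E2 enzymes Ube2g2, Ube2j1 and Ube2j2 were higher in tumor than in blood in the same fit. Of 11 genes for cullins and their partners, a list without Nedd8, 6 were higher and 1 lower in tumor than in blood. Nedd8 itself, counted with ubiquitin and its relatives, was lower in tumor than in blood by -0.86 (SE 0.24, adjusted p = 0.0104). Its step from bone marrow to tumor was -0.86 too and also passed the threshold. Cul2 rose by 2.36 (adjusted p = 0.000105), Cand1 by 1.69 (adjusted p = 0.00384) and Rnf7 by 1.16 (adjusted p = 0.000341) against blood, while Ube2m and Ube2f did not pass there. With median centring this list had 2 higher and 3 lower. Leaving out each library in turn gave 4 to 7 higher for this list and 6 to 8 lower for the ER list. Of the 6 partners of RAD6, 1 was higher and 3 lower in tumor than in blood, and with plain totals 3 were higher and none lower. Rad18 was higher by 3.74 (SE 0.86, adjusted p = 0.00363), set against only 6, 1 and 20 reads in the blood libraries. Ubr1 was lower by -0.72 (adjusted p = 0.00108). Of 12 partners of lysine 63 chains, 2 were higher and 4 lower than in blood. Of 15 HECT and RBR ligases tested, 2 were higher and 5 lower, among them Nedd4 by 5.17 (adjusted p = 1.72e-07) and Rnf31, of the linear chain complex, by -1.87 (adjusted p = 1.11e-05). Of 13 SUMO partners, 3 were higher and 4 lower. Beside these counts, 33.7% of all genes were higher and 21.1% lower in tumor than in blood, and 26.8% and 19.5% against bone marrow. The splits of these lists depend on the scaling as well. With plain totals, 41.5% of all genes were higher and 14.7% lower, and the E1 genes had 5 higher and 2 lower, the genes for ubiquitin and its relatives 6 and 1, the E2 enzymes with other names 3 and 1, the lysine 63 partners 4 and 3, the HECT and RBR ligases 6 and 1 and the SUMO partners 6 and 4. With median centring, 23.8% of all genes were higher and 33.6% lower, and the same lists had 2 and 5, 3 and 5, 1 and 4, 0 and 9, 1 and 9, and 0 and 9, in that order. With quantile normalization, 24% of all genes were higher and 30.1% lower, and they had 2 and 3, 3 and 3, 1 and 3, 1 and 5, 2 and 11, and 1 and 7. The RAD6 partners had 1 higher and 5 lower with median centring and 0 and 4 with quantile normalization, and the cullin list 3 and 3 with the latter.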

How the data were processed

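RNA of sorted neutrophils was made into cDNA by SMARTSeq v2, which does not mark strand, and sequenced as paired reads. Per the labels, the processing notes name STAR 2.5.2b, featureCounts 1.5.0 and edgeR 3.8.6, with GRCm38 and GENCODE annotation. The deposited values are log2 FPKM, made by the authors from gene counts. The values show scaled library sizes and a small count added before the log. For 85% of the genes found in the annotation used here, the length equals the genomic span, so these values do not compare genes. Whole reads were recovered from the steps of the values for all 46517 genes, within 0.02 reads. Genes with at least 5 reads in 1 or more libraries (17714) were fitted with limma 3.58.1 in R 4.3.3, 1 coefficient per compartment over all 9 libraries and no covariates, with a variance trend on mean log2 reads and Benjamini-Hochberg adjustment over all genes tested at 0.05. Ratios of related genes used exact two-sided permutation tests. Recovery and fit were tested on simulated data. Bounds and intervals cover counting error only. RPM and RPKM values computed here use the scaled library sizes.

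Members and lists were chosen with earlier results of these data known. Values in every library are given for members past the threshold with a log2 fold change of at least 1 in size, and for the 5 with most reads. Of each list, at most 4 genes past the threshold are named. Results for some genes are not reported here, although counts include them. Other scalings, filters, pseudocounts, variance models, limma-voom, a replicate block and the removal of each library were tried.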

Additional observations from a re-analysis of the deposited data

How the results depend on the processing

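Of 45 calls of members, 9 held under every alternative run: the 3 of Ube2h, both of Ube2e3, Ube2b in tumor against blood, and Ube2f, Ube2o and Ube2t in blood against bone marrow. Of the others, plain library totals ended 16 (and added 9), median centring 12 (9), quantile normalization 13 (5), no filter 13 (3) and no trend 13 (1). The scaled library sizes were 1.08 to 1.22 times the reads in tumor libraries and 0.80 to 0.88 times in bone marrow and blood. Plain totals leave this factor out, which moves every tumor contrast upward. The stricter filter tests fewer members (19). Beyond these settings, the cause of lost calls was not tested.

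Members higher in tumor than in blood numbered 11, but 5 with the filter of log2 FPKM over 0 in at least 3 libraries, with median centring and at a log2 fold change of at least 1, 4 with quantile normalization and 7 without a trend. Leaving out 1 library gave 8 to 12. Members lower there numbered 8, but 4 without a filter or a trend, 3 with plain totals and at a log2 fold change of at least 1, 16 with median centring, and 5 with the strict filter, with a trend on log2 FPKM and with only 2 compartments. Leaving out 1 library gave 3 to 7, the lowest without blood replicate 3, and 5 without tumor replicate 1 or 3. The median of 0.27 was -0.11 with the strict filter, 0.17 with a mean of at least 10 reads, 0 with no filter, 0.044 and 0.13 with pseudocounts of 1 and 0.1, 0.72 with plain totals, -0.48 with median centring and -0.11 with quantile normalization.

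For tumor against bone marrow, 4 were higher, but 1 with the strict filter, 10 with plain totals and 2 with median centring or quantile normalization. The 11 lower were 1 with plain totals and 1 at a log2 fold change of at least 1. The median of -0.15 was -0.52 with the strict filter, -0.029 with no filter, 0.29 with plain totals, -0.63 with median centring and -0.56 with quantile normalization. For blood against bone marrow, the 8 lower were 4 with median centring and at a log2 fold change of at least 1, and 5 to 9 with 1 library left out, the lowest without bone marrow replicate 3. The median of -0.25 was -0.081 with a pseudocount of 1 and 0.023 with median centring.

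Directions turned for tumor against blood with median centring in Ube2f (-0.47), Ube2j1 (-0.24), Ube2j2 (-0.19), Ube2g2 (-0.37), Ube2n (-0.43), Ube2z (-0.045) and Ube2e1 (-0.10), with quantile normalization in Ube2v1 (-1.86) and Ube2e1 (-0.14), and with plain totals in Ube2w (0.037), Ube2d3 (9.5e-05) and Ube2d2a (0.0060). For tumor against bone marrow they turned with plain totals in Ube2g2 (0.34) and Ube2d2a (0.020).

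Deviations of same-numbered libraries correlated at -0.211 to 0.182, and those of differently numbered libraries at -0.247 to 0.237. With 3 libraries per compartment, these values cannot decide whether replicate numbers pair the libraries. The paper describes the bone marrow and blood neutrophils as coming from the same mouse as those of the tumor. The main fit used no pairing. The fit with the replicate block ended 4 calls and added 3, with 11 higher and 8 lower for tumor against blood, 4 and 11 for tumor against bone marrow, and 3 and 7 for blood against bone marrow. Depth limits the low members, since 2 of the 32 tested had a mean under 10 reads and 20 had at least 100.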
